A study of Mus musculus with 14 samples.

Results

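Cells meet oxidants and reactive chemicals with a shared set of enzymes whose genes are largely under the transcription factor NRF2, encoded by Nfe2l2. The adaptor KEAP1 normally holds NRF2 low by handing it to a ubiquitin ligase, oxidants release that hold, and NRF2 then binds antioxidant response elements together with small MAF proteins such as MAFG, while BACH1 represses at the same elements. The products supply 2 reducing systems, glutathione and thioredoxin, which draw their reducing power from NADPH made largely in the pentose phosphate pathway; tumour cells are known to depend on these systems when they grow and spread. The genes described here are 40 members of this defence: 4 regulators, 5 NRF2 target enzymes, 5 genes of glutathione synthesis and recycling, 5 glutathione peroxidases, 5 glutathione transferases, thioredoxin and its reductase, 6 peroxiredoxins, catalase with 3 superoxide dismutases, and 4 pentose phosphate enzymes. They were chosen by gene symbol, with earlier results of these data known. All 40 were found among the 24411 gene symbols of the count tables.

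The samples were 14 RNA sequencing libraries of MC-38, a mouse colon cancer line. In culture, 3 control libraries came from MC-38 grown alone and 3 from MC-38 given NET-chromatin, the DNA and protein mesh of neutrophil extracellular traps, harvested from neutrophils in vitro; the labels give no dose or exposure time. In mice, GFP-expressing MC-38 cells were sorted from lung tumours at day 30, with 2 libraries for each of 4 host groups: WT mice without surgery, WT mice given a laparotomy on day 0 and another on day 10, unoperated PAD-4 KO mice, and PAD-4 KO mice with laparotomies at those 2 times. PAD4 is the histone-citrullinating enzyme that neutrophils use to release NETs. The deletion is in the host and MC-38 itself keeps the gene, so the label cannot be checked in the sorted cells: Padi4 stood at 64.4 to 72.1 CPM (counts scaled to a common library size) in the cultures, at 30.3 and 30.7 CPM in tumours of operated WT mice, and at 2.08 to 7.49 CPM in the other 6 tumour libraries. The labels do not state host strain, age, the number of mice behind a library or whether libraries are separate cultures or animals. The p-values below therefore rest on the spread among the libraries, which may be partly technical.

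Libraries held 6389217 to 20607281 gene counts in culture and 10844282 to 31255721 in tumours, and the 40 genes took 0.44% to 0.674% of them. Levels are CPM on the scale of each fit. The summed level of 12 intestinal epithelial markers was 2.12 to 3.2 CPM in the cultures and 2.45 to 35.2 CPM in the tumours, so the epithelial origin of the line was hardly visible in its RNA. Sorted tumour cells carried RNA of host cells in uneven amounts. Summed over 10 pan-leukocyte markers the level was 4.72 to 5.71 CPM in control cultures and 82.1 to 912 CPM in tumours, and WT control tumour 2 stood apart with 912 CPM of these, 573 CPM of neutrophil markers and 841 CPM of lung epithelial markers. In NET cultures the pan-leukocyte sum was 15.9 to 17.9 CPM. The neutrophil sum was 2.69 to 3.88 CPM there and 0.304 to 1.02 CPM in controls. Of the 10 neutrophil genes, Ngp and Retnlg were at 0 in all 6 cultures. S100a8, S100a9, Csf3r and Cxcr2 were higher in every NET culture than in any control, the rest overlapped, and all were too scarce to test. The macrophage sum was 89.5 to 108 CPM in controls and 151 to 176 CPM in NET cultures, with 4 of 5 tested markers called higher. In bulk RNA, fewer cells of a type and less RNA per cell cannot be told apart.

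The promoters of these genes were searched for the core of the antioxidant response element because that element is where NRF2, MAFG and BACH1 meet. RefSeq windows running from 250 bases before to 50 bases after the gene start (GRCm38.p6) were found for 34 of the 40 members and not used for Hmox1, Gclc, Gsr, Gsta4, Prdx6 and Sod3. The core, TGACNNNGC on either strand (GCNNNGTCA when it lies on the other strand), was present for 9 of 34 members (26.5%) and for 14% of all 27025 genes with a window. The 9 stretches are shown in the direction of the gene, with the core in capitals. They lie at chr2:75704885-75704913 (Nfe2l2), chr2:152105542-152105570 (Srxn1), chr3:122245413-122245441 (Gclm), chr4:116685456-116685484 (Prdx1), chr4:149166061-149166089 (Pgd), chr10:82859104-82859132 (Txnrd1), chr11:120633751-120633779 (Mafg), chr16:90220696-90220724 (Sod1) and chrX:74428919-74428947 (G6pdx).
Nfe2l2: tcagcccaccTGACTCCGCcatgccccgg
Srxn1: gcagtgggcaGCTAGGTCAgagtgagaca
Gclm: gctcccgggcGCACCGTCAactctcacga
Prdx1: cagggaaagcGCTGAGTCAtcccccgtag
Pgd: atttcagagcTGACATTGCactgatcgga
Txnrd1: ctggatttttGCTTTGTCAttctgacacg
Mafg: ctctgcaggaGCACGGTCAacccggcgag
Sod1: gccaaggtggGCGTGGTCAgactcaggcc
G6pdx: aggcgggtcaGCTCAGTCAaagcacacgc
Only the Prdx1 stretch carries the fuller form TGACTCAGC, read on the other strand, which 0.454% of all 32851 windows hold. In Srxn1 and Pgd the core begins after the annotated start, and in the other 7 it lies 56 to 240 bases before it. A match describes letters in a window and is no evidence of binding.

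The first question was how MC-38 cells answered NET-chromatin. Srxn1, Osgin1 and Nqo1, enzymes known as NRF2 targets, fell 2.54- to 4.08-fold, and Keap1, Nfe2l2 and Bach1 fell with them. The glutathione peroxidases Gpx1, Gpx4 and Gpx8, thioredoxin and 2 peroxiredoxins rose by 1.12- to 1.38-fold, and Hmox1, the heme-degrading enzyme, rose 1.42-fold. Of the 37 members tested by edgeR's quasi-likelihood test, 26 passed a Benjamini-Hochberg adjusted p of 0.05, 9 higher and 17 lower. Among all 11753 genes tested, 54.1% were called, 26.3% higher and 27.8% lower, so the count of higher members was near the background and the count of lower members was above it. The median log2 fold change was -0.15 over the members and 0.00067 over all genes. Libraries of the groups did not overlap for 17 members that were lower and 11 that were higher, where 30.6% and 29.5% of all genes did the same.

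Srxn1, sulfiredoxin, which repairs over-oxidised peroxiredoxins, had the steepest drop. Its level was 192, 167 and 177 CPM in the control cultures and 56.6, 30.8 and 42.6 CPM in the NET cultures (log2 fold change -2.03, SE 0.14, adjusted p = 4.12e-07). All 3 NET libraries lay far under the lowest control. Osgin1, an oxidative-stress-responsive regulator of cell growth and death, read 36.5, 47.1 and 44.8 CPM against 17.7, 11.3 and 13.5 CPM with NET-chromatin (-1.59 ± 0.13, adjusted p = 8.96e-08). Nqo1, the quinone reductase often used as the readout of NRF2 activity, read 205, 192 and 186 CPM against 76.3, 79.4 and 74.2 CPM (-1.34 ± 0.07, adjusted p = 2.32e-10). The NET libraries lay close together for Nqo1, which ranked 7 among all genes tested by p. Hmox1 moved the other way, from 463, 462 and 430 CPM to 588, 632 and 703 CPM (0.51 ± 0.07, adjusted p = 1.41e-05), without overlap. Hmox1 is also the best known target of repression by BACH1. Ugt1a6a, a phase II glucuronosyltransferase, was too scarce to test, with 24 counts in control and 11 in NET cultures, and the NET to control ratio of 0.479 had a 95% interval from counting of 0.212 to 1.02.

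The regulators themselves were lower, except Mafg. Keap1 read 41.8, 43.3 and 44.0 CPM in controls and 21.3, 17.7 and 21.7 CPM in NET cultures (-1.06 ± 0.09, adjusted p = 1.42e-07), a drop to about the same level in every treated library. Nfe2l2 read 136, 144 and 141 CPM against 111, 89.0 and 102 CPM (-0.47 ± 0.08, adjusted p = 6.13e-05). The activator and its inhibitor were thus both lower in mRNA. Bach1 read 68.9, 69.3 and 71.5 CPM against 58.8, 61.8 and 56.1 CPM (-0.26 ± 0.07, adjusted p = 0.0067); the groups were apart, but the call was lost without NET replicate 3 (adjusted p = 0.0679). Mafg read 77.3, 100.2 and 94.9 CPM against 105, 100.1 and 108 CPM, with overlapping groups (0.20 ± 0.08, adjusted p = 0.0501).

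**Figure D1:**
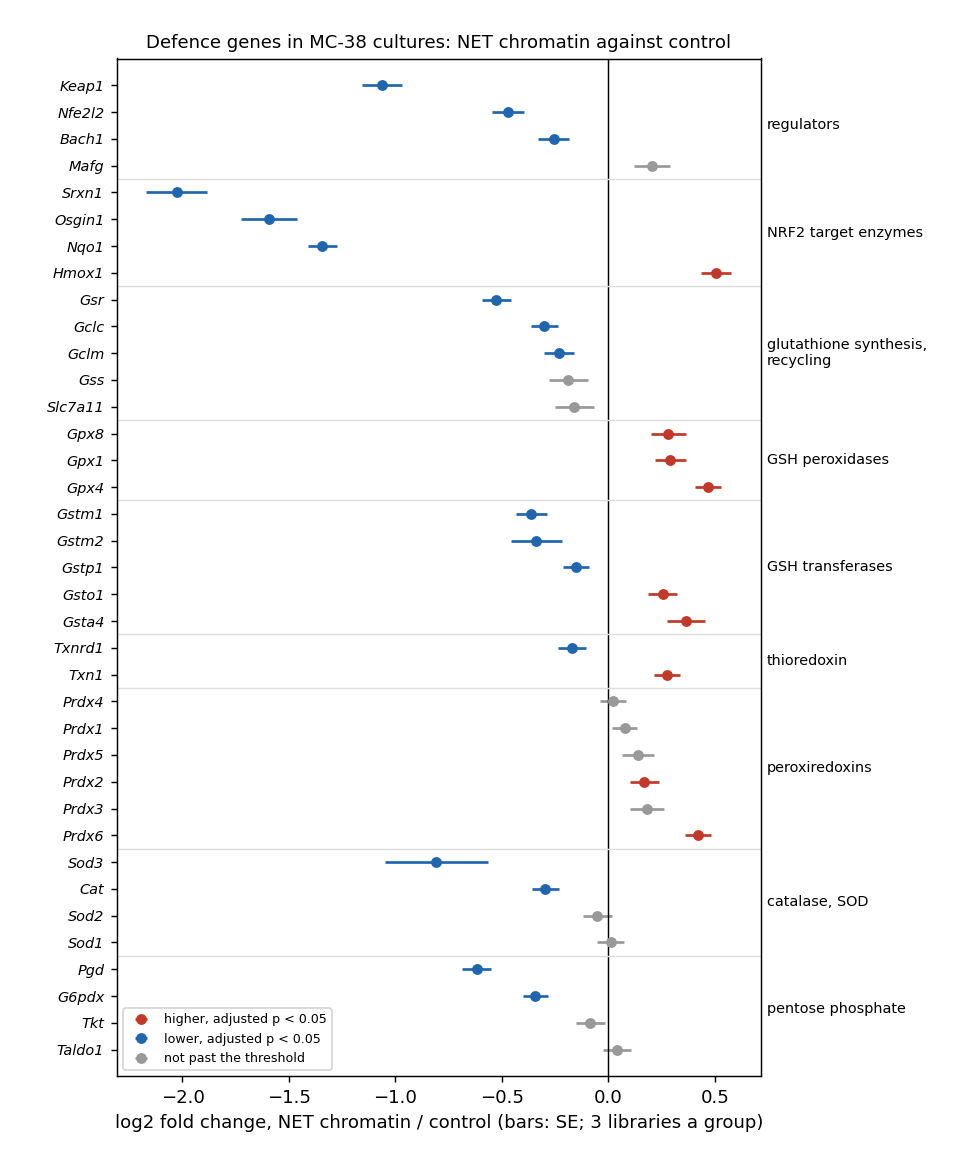
Log2 fold change of each tested member in NET-treated against control cultures (points, with SE as bars), grouped by role; colours give calls by edgeR at an adjusted p of 0.05. Srxn1, Osgin1, Nqo1 and Keap1 lie furthest left at -2.03 to -1.06, and the highest members are Hmox1 at 0.51 and Gpx4 at 0.47.

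Glutathione synthesis and recycling had 3 of 5 members lower and none higher. Gsr, which returns oxidised glutathione to its reduced form with NADPH, read 176, 204 and 193 CPM in controls and 134, 129 and 135 CPM in NET cultures (-0.53 ± 0.07, adjusted p = 6.07e-06), with no overlap. The subunits of the rate-limiting ligase were lower by less, Gclc, the catalytic one, by -0.30 ± 0.06 and Gclm, the modifier, by -0.23 ± 0.07 on the log2 scale; the Gclm call was lost without NET replicate 3 (adjusted p = 0.0652). Gss, the second enzyme of the pathway, and Slc7a11, which imports cystine for it, were at -0.19 and -0.16 and did not pass, with overlapping libraries. With library totals in place of TMM scaling, edgeR called both lower (adjusted p = 0.00461 and 0.0138). Slc7a11 was also called lower without control replicate 2 (0.011) or NET replicate 1 (0.0458), and Gss without control replicate 3 (0.047).

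The pentose phosphate enzymes that make NADPH went with Gsr. Pgd, the second of them, read 188, 213 and 197 CPM against 126, 126 and 136 CPM (-0.62 ± 0.07, adjusted p = 1.13e-06), and G6pdx, the first and rate-limiting one, read 231 to 238 CPM against 179 to 189 CPM (-0.34 ± 0.06, adjusted p = 1.38e-04). Taldo1 and Tkt, of the non-oxidative branch that makes no NADPH, were at 0.04 and -0.08 with overlapping libraries and did not pass. In this fit the 2 NADPH-yielding enzymes were called and the 2 others were not. With library totals in place of TMM scaling, edgeR also called Tkt lower (-0.24, adjusted p = 0.00386) and not Taldo1 (-0.12, adjusted p = 0.112). The difference between the 2 kinds of enzyme was not tested.

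Of the 5 glutathione peroxidases, which spend glutathione on peroxides, 3 were tested and all 3 were higher. Gpx4, which clears lipid hydroperoxides and guards against ferroptosis, read 164, 175 and 168 CPM in controls and 230, 232 and 239 CPM with NET-chromatin (0.47 ± 0.06, adjusted p = 6.88e-06). Gpx1, the abundant cytosolic peroxidase, read 69.1, 79.1 and 72.5 CPM against 91.6, 83.7 and 94.0 CPM (0.29 ± 0.07, adjusted p = 0.00339), and Gpx8 of the endoplasmic reticulum read 38.6, 39.95 and 36.7 CPM against 44.1, 50.4 and 46.2 CPM (0.28 ± 0.08, adjusted p = 0.00866). In each of these 3 genes every NET library was above every control; with library totals in place of TMM scaling, Gpx1 and Gpx8 lost their calls (adjusted p = 0.138 and 0.204), and Gpx8 also without control replicate 3 (0.0559). Gpx2 and Gpx3 were almost silent, with 1 and 2 counts in the control cultures and 3 and 5 in the NET cultures.

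The glutathione transferases, which couple glutathione to foreign or damaged molecules, split. Gsta4, specialised for the lipid peroxidation product hydroxynonenal, read 25.7, 27.3 and 25.9 CPM against 32.3, 35.7 and 34.0 CPM (0.37 ± 0.09, adjusted p = 0.00221), and Gsto1, of the omega class, read 136, 138 and 139 CPM against 177, 149 and 167 CPM (0.26 ± 0.07, adjusted p = 0.0049). Gstm1 fell from 161 to 187 CPM to 127 to 142 CPM (-0.36 ± 0.07), Gstm2 from 15.8 to 19.1 CPM to 12.8 to 14.9 CPM (-0.34 ± 0.12) and Gstp1 by least (-0.15 ± 0.06, adjusted p = 0.0481). The Gstm and Gstp genes have close paralogs, and reads that match several genes equally are left out as multimapping. Calls for Gstm2 and Gstp1 were lost under several alternatives, Gstm2 with DESeq2 (adjusted p = 0.0637) and Gstp1 with DESeq2 (adjusted p = 0.0736).

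**Figure D2:**
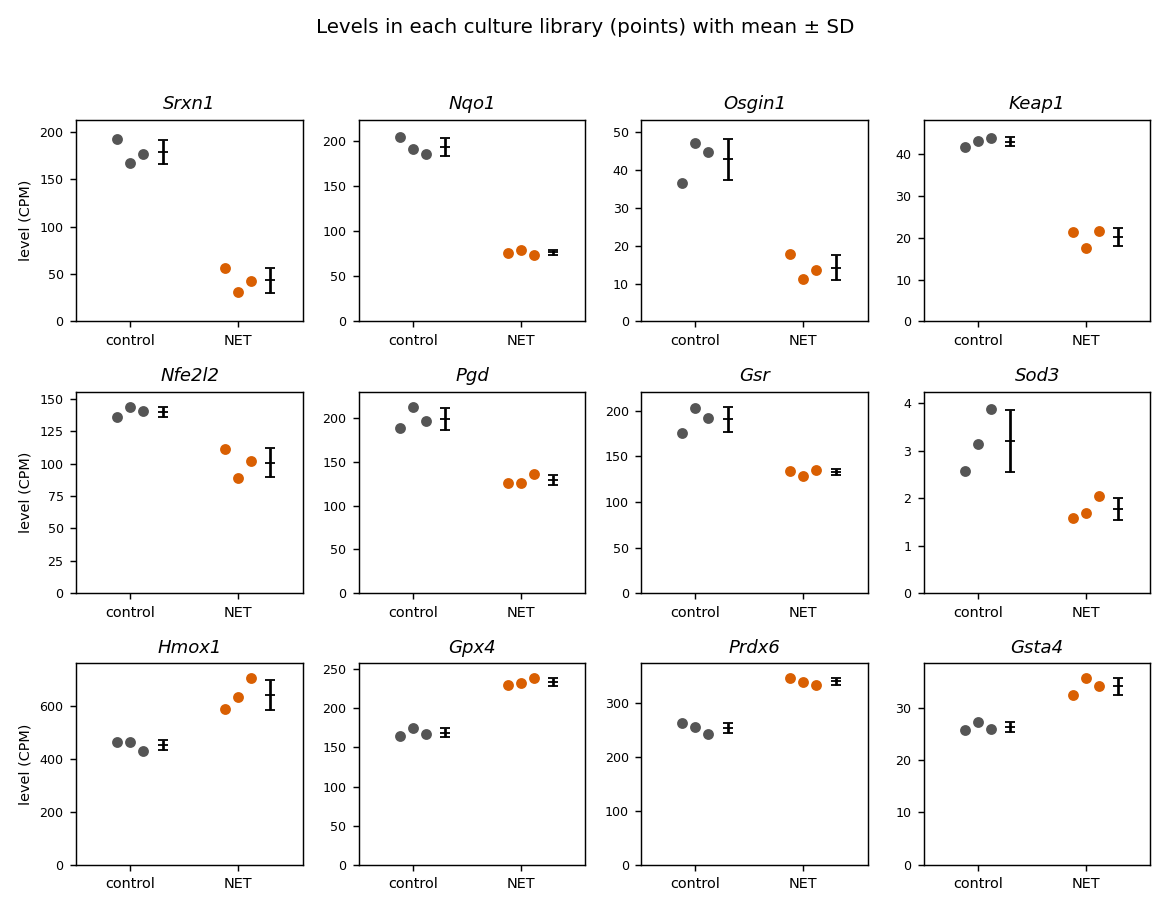
Level in CPM of 12 members in each culture library (points; grey control, orange NET-chromatin) with the mean ± SD of 3 libraries beside them. The groups do not overlap in any panel: the first 8 genes are lower in the NET libraries and Hmox1, Gpx4, Prdx6 and Gsta4 are higher.

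On the thioredoxin side, the carrier was called higher and its reductase lower, the latter less firmly. Txn1 read 323, 325 and 319.9 CPM in controls and 377, 417 and 381 CPM in NET cultures (0.28 ± 0.06, adjusted p = 0.00122), and Txnrd1, the selenoenzyme that reduces it, read 383 to 409.8 CPM against 328 to 377 CPM (-0.17 ± 0.07, adjusted p = 0.036). The Txnrd1 call was lost without control replicate 2 or 3 (adjusted p = 0.0663 and 0.121) or NET replicate 2 or 3 (0.105 and 0.1). Of the 6 peroxiredoxins, the peroxidases that thioredoxin serves, 2 were higher and none lower. Prdx6, which reduces phospholipid hydroperoxides and uses glutathione instead, read 263, 255 and 243 CPM against 347, 339 and 334 CPM (0.42 ± 0.06, adjusted p = 1.85e-05). Prdx2 was at 0.17 ± 0.07 (adjusted p = 0.0407), a call lost with no filter on low counts (0.0592) and without control replicate 1 or 3 (0.0503 and 0.199) or NET replicate 2 or 3 (0.117 and 0.119), and the other 4 at 0.02 to 0.18 did not pass. Catalase fell from 113 to 115 CPM to 90.7 to 97.9 CPM (-0.30 ± 0.07, adjusted p = 0.00107). Sod3, the scarce extracellular superoxide dismutase, read 2.57, 3.14 and 3.88 CPM against 1.59, 1.68 and 2.04 CPM (-0.81 ± 0.24, adjusted p = 0.00927), a call lost without control replicate 3 (adjusted p = 0.0691), while cytosolic Sod1 and mitochondrial Sod2 stood at 0.01 and -0.05.

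Of the 26 calls, 14 were kept in every alternative, among them the 3 higher genes Hmox1, Gpx4 and Prdx6 and 11 lower genes led by Srxn1. Scaling to library totals in place of TMM moved the median of all genes to -0.16. The split of calls went from 3093 higher and 3270 lower to 1640 and 4777. Among the members it gave 3 higher and 23 lower. Txn1, Gsta4, Gpx1, Gsto1, Gpx8 and Prdx2 no longer passed, while Gss, Slc7a11, Tkt, Sod2, Prdx4 and Sod1 were newly called lower. The leukocyte, neutrophil and macrophage sums given above were higher in the NET cultures. So was the fibroblast and smooth muscle sum, at 144 to 160 CPM against 109 to 114 CPM, with 3 of 5 tested markers called higher and 1 lower. Reads in exons of no listed gene came to 21.8% to 24.0% in NET cultures and 17.6% to 18.2% in controls. Unmapped reads came to 8.45% to 11.5% and 5.94% to 7.04%. The part of these differences in the results was not tested.

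Set against the promoter matches, 6 of the 9 genes with the core were lower in NET cultures (Nfe2l2, Srxn1, Gclm, Pgd, Txnrd1 and G6pdx), none was higher and 3 were not called (Prdx1, Mafg and Sod1). Of the 22 tested genes whose window lacks it, 8 were lower, 6 higher and 8 not called; Nqo1 and Keap1 are among those lower. The 6 members with no window divided evenly, with 3 lower and 3 higher. Over all genes tested 27.8% were lower and 26.3% higher, and the shares among all genes with the core are not given. Elements outside the window are missed by this search. These are counts from few genes and carry no test.

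A wider list of 82 other defence genes, of which 69 were tested, gave 9 higher and 21 lower with a median of -0.02. Among all genes 26.3% were higher and 27.8% lower, so the list's lower count was near the background and its higher count below it. The lowest were Ephx1, the microsomal epoxide hydrolase, from 4.5 to 0.615 CPM (-2.58 ± 0.34), Nfe2l1, the NRF2 relative that drives proteasome genes, from 1023 to 403 CPM (-1.34 ± 0.10), and H6pd, the pentose phosphate dehydrogenase of the endoplasmic reticulum (-1.28 ± 0.11). The highest were Msra, which repairs oxidised methionine (0.53 ± 0.17), Glrx5 (0.45 ± 0.09), a mitochondrial glutaredoxin of iron-sulfur cluster assembly, and Me1, the NADP-dependent malic enzyme (0.43 ± 0.09). Here Me1 and the pentose phosphate dehydrogenases, which all supply NADPH, were called in opposite directions.

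In the tumours the question was whether laparotomy, or PAD4 in the host, moved these genes in the sorted cells. With 2 libraries a group, 39 members could be tested and edgeR called 1 of them in any of the 5 comparisons, Ugt1a6a; DESeq2 called 3 to 7 in each, as given below. It was higher after laparotomy in PAD-4 KO hosts, and the laparotomy effect differed between host genotypes. The comparisons share groups, so their values are given side by side and are not independent. Gpx2 was too scarce to test, at 0 to 0.528 CPM.

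Ugt1a6a, which attaches glucuronic acid to phenols and is known to respond to NRF2 and to the aryl hydrocarbon receptor, read 13.4 and 10.2 CPM in WT controls, 13.3 and 11.2 CPM after laparotomy in WT hosts, 4.37 and 4.57 CPM in PAD-4 KO controls and 18.8 and 24.7 CPM in operated PAD-4 KO hosts. The KO controls were lowest of all groups, the operated KO hosts highest, and the WT groups overlapped. The log2 fold change for laparotomy was 2.28 ± 0.26 in KO hosts (adjusted p = 0.0211), and the KO minus WT difference of the laparotomy effects was 2.22 ± 0.35 (adjusted p = 0.042). Without surgery the KO to WT change was -1.39 ± 0.25 (adjusted p = 0.0905), and with it 0.82 ± 0.25 (adjusted p = 0.231). Without WT control 2 the KO minus WT difference of the laparotomy effects was 2.41 (adjusted p = 0.0282). The call in KO hosts was lost without KO control 1 (adjusted p = 0.165) or without KO laparotomy 2 (adjusted p = 0.0718). When single libraries were left out, the difference lost its call with each that was not a WT control: its adjusted p without WT laparotomy 1 or 2 was 0.212 and 0.242, without KO control 1 or 2 it was 0.139 and 0.0505, and without KO laparotomy 1 or 2 it was 0.0618 and 0.0725. Of the exon length of Ugt1a6a, 50.3% lies in exons annotated to other genes, chiefly the 3' exons that the Ugt1a family shares. Reads that fall in several genes are left out as ambiguous, so its level may rest on the rest of its exons. Ugt1a7c stood at 15.8 to 32.4 CPM in the tumours.

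After laparotomy in WT hosts, 0 of 39 members were called by edgeR, where 0.0547% of all 14615 genes were. The background was 0.0205% higher and 0.0342% lower. At an unadjusted p under 0.05 there were 10, beside 18.8% of all genes. DESeq2 called 3 (Hmox1 higher, Sod3 and Gpx3 lower), beside 2.07% higher and 6.36% lower of the genes it gave an adjusted p, which summed is near the members' share. Of the 39, 23 had a log2 fold change below 0, and the median was -0.07 beside -0.0059 over all genes. Hmox1 read 197 and 230 CPM in controls and 364 and 336 CPM after laparotomy (0.71 ± 0.23, adjusted p = 0.181). Sod3, secreted by vessel wall and lung cells, read 28.0 and 26.6 CPM against 4.36 and 6.74 CPM (-2.29 ± 0.64, adjusted p = 0.163), and Gpx3, the plasma peroxidase, read 14.5 and 65.5 CPM against 3.01 and 2.77 CPM. In these genes the groups did not overlap, as for 10 members that were higher and 15 that were lower, beside 29.2% and 28.1% of all genes. Gpx1 read 161 and 178 CPM against 128 and 128 CPM (-0.40 ± 0.13, adjusted p = 0.177) and Gstp1, the main transferase of many tumours, 185 and 179 CPM against 133 and 147 CPM (-0.38 ± 0.13, adjusted p = 0.187). Host markers moved with them: the macrophage sum was 376 and 1653 CPM in WT controls and 121 and 111 CPM after laparotomy, the lung epithelial sum 149 and 841 CPM against 17.0 and 26.1 CPM, and the endothelial sum 154 and 594 CPM against 72.4 and 69.7 CPM. Their part in these values was not tested. Without WT control 2, the library richest in host markers, 0 members were called by edgeR and the median was -0.13.

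After laparotomy in PAD-4 KO hosts, 1 of 39 members was called, Ugt1a6a, against 0.52% of all genes (0.342% higher and 0.178% lower). At an unadjusted p under 0.05 there were 11, beside 15.7% of all genes. DESeq2 called 7 higher (Ugt1a6a, Sod2, Gstp1, Slc7a11, Hmox1, Nqo1 and Prdx4) and none lower, beside 3.12% and 2.39% of all genes. Of 39 log2 fold changes, 32 were above 0, with a median of 0.26 beside -0.0064 over all genes. Sod2, the mitochondrial dismutase, read 76.8 and 88.5 CPM in KO controls and 122 and 136 CPM in operated hosts (0.64 ± 0.13, adjusted p = 0.0893). Hmox1 read 125 and 213 CPM against 350.4 and 286 CPM (0.91 ± 0.24, adjusted p = 0.137). Slc7a11, the cystine importer, read 6.84 and 24.6 CPM against 63.9 and 46.4 CPM (1.81 ± 0.56, adjusted p = 0.205). Nqo1 read 6.65 and 11.2 CPM against 16.1 and 26.1 CPM (1.24 ± 0.36, adjusted p = 0.17). In these 4 genes, as in 18 members that were higher and 4 that were lower beside 21.6% and 20.5% of all genes, the groups were apart. In each of the 4 KO control 1 was below KO control 2, and none of the 4 passed by edgeR, while all 4 passed by DESeq2. Host markers differed here too. The endothelial sum was 98.3 and 354 CPM in KO controls and 131 and 109 CPM in operated hosts, with 10 of 10 markers below 0 (median log2 fold change -1.08), and the macrophage sum 126 and 341 CPM against 474 and 332 CPM, with 11 of 12 above 0 (0.77). The intestinal epithelial sum was 2.47 and 10.1 CPM against 16.5 and 20.5 CPM, with 8 of 8 markers tested above 0. Their part was not tested. The WT groups did not overlap for Slc7a11 either, with 21.2 and 30.9 CPM in controls and 49.2 and 47.0 CPM after laparotomy.

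**Figure D3:**
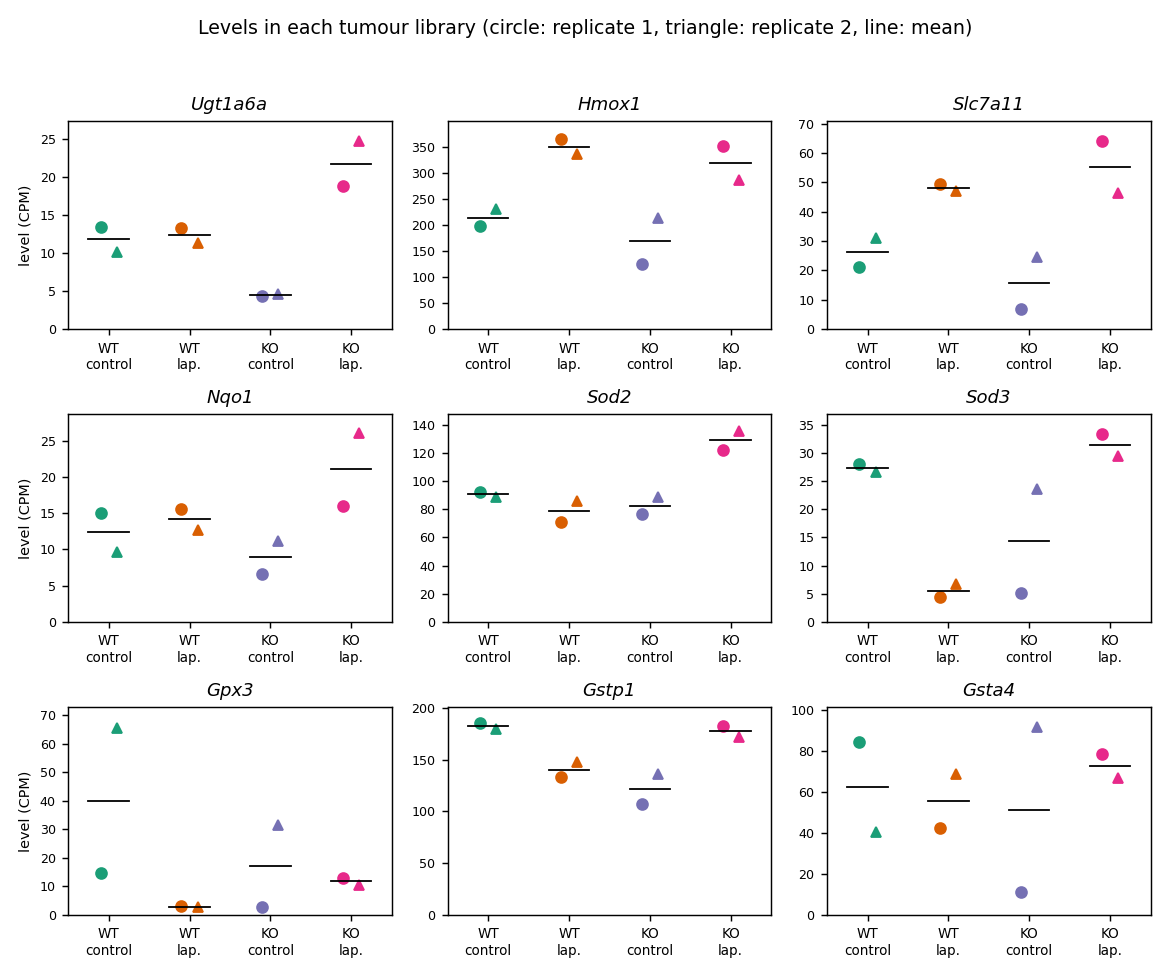
Level in CPM of 9 members in each of the 8 tumour libraries (circle replicate 1, triangle replicate 2, line the mean of 2), by host group. Ugt1a6a is lowest in the PAD-4 KO controls (4.37 and 4.57) and highest in operated KO hosts (18.8 and 24.7), Hmox1 and Slc7a11 are higher in both operated groups than in their own controls, and KO control replicate 1 is the lowest point for Gsta4 at 10.9.

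For the KO minus WT difference of the laparotomy effects, 1 of 39 members was called (Ugt1a6a), against 0.677% of all genes (0.411% higher and 0.267% lower), with 12 at an unadjusted p under 0.05 (19.2% of all genes) and 6 called higher and none lower by DESeq2 (5.27% and 2.97% of all genes). In this contrast 11 of 11 lung epithelial markers tested, 10 of 10 endothelial and 11 of 12 macrophage markers had values above 0, and their part was not tested. The next by p were Gstp1 (0.92 ± 0.19, adjusted p = 0.0709) and Sod2 (0.85 ± 0.19, adjusted p = 0.0812). Gstp1 read 107 and 136 CPM in KO controls and 182 and 172 CPM in operated KO hosts, and its groups were apart in opposite directions in the 2 genotypes. Its near-identical neighbour Gstp2, of the wider list, had the same form, with 21.6 and 28.2 CPM in WT controls, 7.63 and 8.28 CPM in operated WT hosts, 8.85 and 11.5 CPM in KO controls and 20.5 and 19.3 CPM in operated KO hosts (difference 2.61 ± 0.31, adjusted p = 0.0201). Reads that match both paralogs equally are left out as multimapping, so each level may rest on part of the reads. Gstp2 was 1 of 76 genes of the wider list called in any of the 5 tumour comparisons.

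Between host genotypes without surgery, 0 of 39 members were called by edgeR, against 0.116% of all genes (0.0547% higher and 0.0616% lower), with 4 at an unadjusted p under 0.05 (16.3% of all genes) and 3 called by DESeq2 (Ugt1a6a and Gstp1 lower, Gsto1 higher), where 3.32% of all genes were lower and 2.26% higher. Gsto1 read 86.9 and 84.6 CPM in WT controls and 121 and 130.4 CPM in KO controls (0.55 ± 0.14, adjusted p = 0.16), Gstp1 was at -0.58 ± 0.13 (adjusted p = 0.127), and Cat read 102 and 101 CPM against 73.6 and 88.5 CPM (-0.32 ± 0.12, adjusted p = 0.243). In each the groups were apart, as for 4 members that were higher and 13 that were lower, beside 22.2% and 22.2% of all genes. Of the 39, 28 were below 0, with a median of -0.13 beside -0.018 over all genes, of which 47.8% were above 0. Many host markers had values below 0 too: 10 of 10 pan-leukocyte (median log2 fold change -2.22) and 8 of 8 neutrophil markers tested (-3.10). So had 11 of 12 macrophage (-1.73) and 10 of 10 endothelial markers (-0.82), none called by edgeR. The pan-leukocyte sums overlapped, at 126 and 912 CPM in WT controls and 154 and 180 CPM in KO controls. The neutrophil sums (52.2 and 573 against 11.8 and 92.3 CPM) and endothelial sums (154 and 594 against 98.3 and 354 CPM) overlapped as well. In each, WT control 2 was the highest. The part of these markers was not tested. Between genotypes after laparotomy, 0 of 39 members were called by edgeR, against 0.0205% of all genes, with 11 at an unadjusted p under 0.05 (13.4% of all genes) and 4 called higher and none lower by DESeq2 (Gpx8, Sod2, Gstm2 and Sod3), where 2.66% and 1.54% of all genes were. Sod2 read 71.2 and 85.9 CPM in operated WT hosts and 122 and 136 CPM in operated KO hosts (0.71 ± 0.13, adjusted p = 0.111). Gpx8 read 42.1 and 43.0 CPM against 59.8 and 72.1 CPM (0.63 ± 0.16, adjusted p = 0.176), and Sod3 4.36 and 6.74 CPM against 33.3 and 29.4 CPM (2.49 ± 0.65, adjusted p = 0.206). Here 28 of 39 were above 0, and groups were apart for 21 members that were higher and 3 that were lower, beside 26.2% and 26.1% of all genes. Several lists of host markers moved with them. The macrophage sum stood at 474 and 332 CPM in operated KO hosts and 121 and 111 CPM in operated WT hosts, the lung epithelial sum at 104 and 96.3 CPM against 17.0 and 26.1 CPM, the endothelial sum at 131 and 109 CPM against 72.4 and 69.7 CPM, the neutrophil sum at 20.7 and 23.8 CPM against 6.84 and 4.91 CPM, and the fibroblast and smooth muscle sum at 3149 and 3994 CPM against 2254 and 1781 CPM. None of these 5 sums overlapped between the groups. Other lists did not follow: 7 of 8 T and NK cell markers tested were below 0 (median log2 fold change -1.17). Pan-leukocyte markers split, with 5 above and 5 below 0, and their sums overlapped (126 and 94.0 CPM in operated KO hosts, 110 and 82.1 CPM in operated WT hosts). The part of host cells in the values, that of Sod3 among them, was not tested. The fibroblast and smooth muscle list is not of host cells alone, since Pdgfra stood at 81.8 to 85.2 CPM in control cultures of MC-38. Col1a1 stood at 1.18 to 1.81 CPM there.

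Across the 8 tumour libraries Nfe2l2 read 160 and 162 CPM in WT controls, 136 and 150.1 CPM in operated WT hosts, 124 and 148 CPM in KO controls and 156 and 196 CPM in operated KO hosts. Keap1 stayed between 30.3 and 40.8 CPM, Mafg between 50.7 and 73.1 CPM and Bach1 between 46.6 and 83.7 CPM, and none of the 4 was called by edgeR in a tumour comparison. Their coefficients of variation across the 8 libraries were 9.51% for Keap1, 13.7% for Mafg, 13.8% for Nfe2l2 and 24.5% for Bach1. Over the 39 members the median was 15.7%, beside 18.6% over all genes.

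Some tumour libraries sat at the edge for many members at a time. KO control 1 was the lowest library for 19 of 39 members (48.7%), where it was lowest for 15.2% of all genes. KO laparotomy 2 was the highest for 14 (35.9%, all genes 15%), and WT laparotomy 1 the lowest for 10 (25.6%, all genes 12%). For laparotomy in KO hosts the median of the members, 0.26, was 0.16 without KO control 1 and 0.18 without KO laparotomy 2, and for KO against WT hosts without surgery it went from -0.13 to -0.04 without KO control 1. KO control 1 also had the highest fibroblast and smooth muscle sum, at 4140 CPM, where the other tumours had 1781 to 3994 CPM. What set these libraries apart was not tested.

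**Figure D4:**
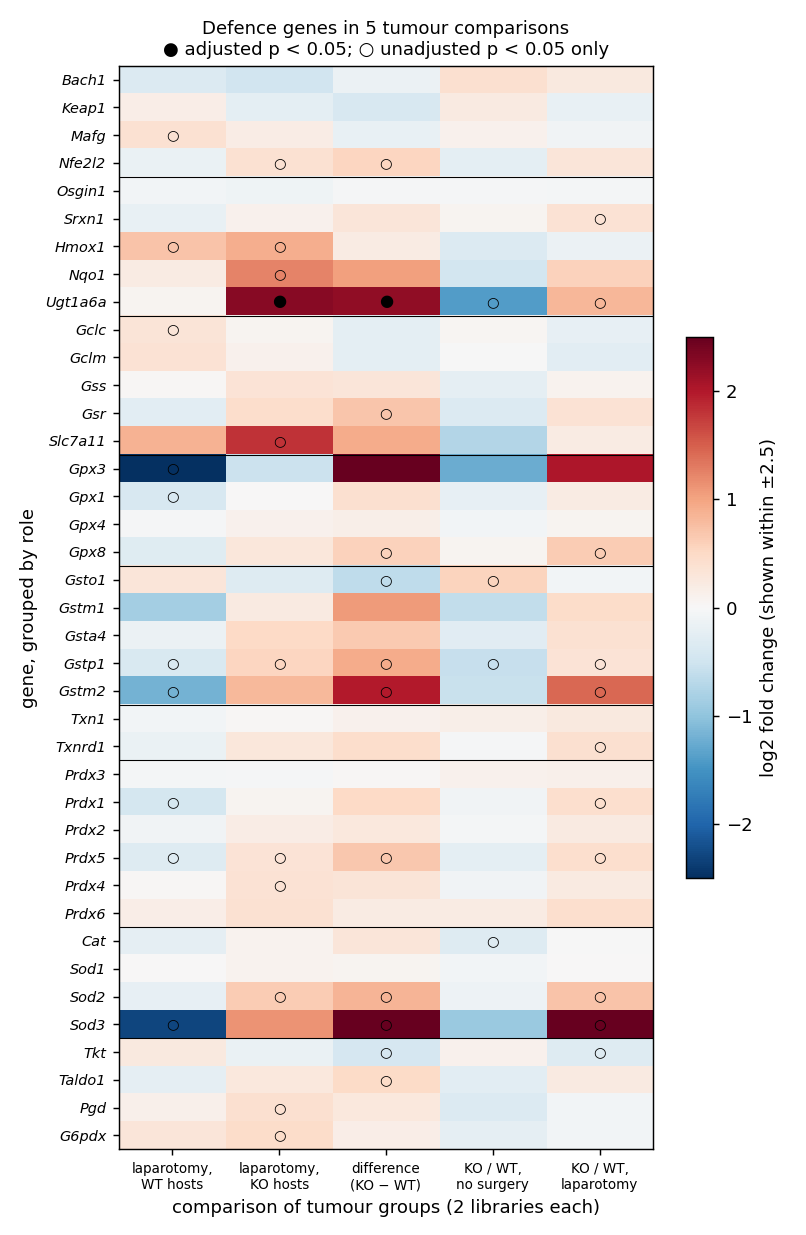
Log2 fold change of the 39 tested members (rows, grouped by role) in 5 tumour comparisons (columns), shown in colour; filled circles mark calls by edgeR at an adjusted p of 0.05 and open circles an unadjusted p under 0.05. The filled circles are on Ugt1a6a, and the column for laparotomy in KO hosts is mostly red, with 32 of 39 above 0.

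Finally, the levels in sorted tumour cells were set beside those in control cultures, which places the tumours against the untreated line; growth in the mouse, GFP, sorting and host cells cannot be told apart in it. Of 39 members tested, 31 were called by edgeR, 10 higher and 21 lower. Among all 14318 genes 71.7% were called, 38% higher and 33.6% lower, so the higher members fell short of the background share and the lower ones exceeded it. The median was -0.32 over the members and 0.074 over all genes, and libraries did not overlap for 10 members that were higher and 18 that were lower, beside 31.5% and 27.9% of all genes. When each of the 4 tumour groups was set against the cultures on its own, 12 of 39 members were lower and 5 higher in all 4, beside 20.3% and 24.7% of all genes.

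Of the 5 NRF2 target enzymes, 4 were lower in the tumours, Nqo1 and Osgin1 by most. Nqo1 read 213, 201 and 194 CPM in the control cultures and 6.64 to 25.9 CPM in the tumours, 15.1-fold lower (-3.92 ± 0.17, adjusted p = 4.62e-08). Osgin1 fell from 38.1 to 49.5 CPM to 7.36 to 10.7 CPM (-2.29 ± 0.13), Srxn1 from 176 to 201 CPM to 86.4 to 123 CPM (-0.84 ± 0.07) and Hmox1 from 449 to 485 CPM to 125 to 364 CPM (-0.90 ± 0.14). No tumour library reached the lowest culture for any of these 4. Set against the cultures by group with edgeR, Hmox1 was not called in operated WT hosts (-0.43 ± 0.20, adjusted p = 0.0824). Ugt1a6a went the other way, from 0.495 to 0.954 CPM to 4.36 to 24.6 CPM (3.93 ± 0.26, adjusted p = 3.33e-07), subject to the shared exons given above. Of the regulators, Nfe2l2 was at 0.07 ± 0.09 with overlapping libraries, Keap1 fell by 0.35 and Mafg by 0.61 on the log2 scale, and Bach1 did not pass.

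In glutathione synthesis and recycling, 3 of 5 members were lower (Gclm, Gclc and Slc7a11) and 1, Gsr, was higher. Gclm fell from 156 to 170.2 CPM to 36.0 to 59.0 CPM (-1.81 ± 0.10, adjusted p = 1.11e-07), Gclc from 187 to 201 CPM to 64.3 to 89.0 CPM (-1.44 ± 0.07, adjusted p = 5.21e-08) and Slc7a11 from 84.5 to 110.1 CPM to 6.83 to 64.0 CPM (-1.60 ± 0.30, adjusted p = 0.0015). Set against the cultures by group, Slc7a11 was called lower in both unoperated groups (-1.90 ± 0.47 in WT and -2.63 ± 0.48 in KO hosts) and not in the operated ones (-1.04 ± 0.44 and -0.85 ± 0.44, adjusted p = 0.075 and 0.127). Gsr was higher, at 184 to 214 CPM in culture and 244 to 439.7 CPM in tumours (0.82 ± 0.13, adjusted p = 2.35e-04), and Gss did not pass. In the pentose phosphate pathway Tkt (-1.43 ± 0.07), G6pdx (-1.15 ± 0.08) and Taldo1 (-0.57 ± 0.07) were lower and Pgd was higher (0.60 ± 0.10).

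**Figure D5:**
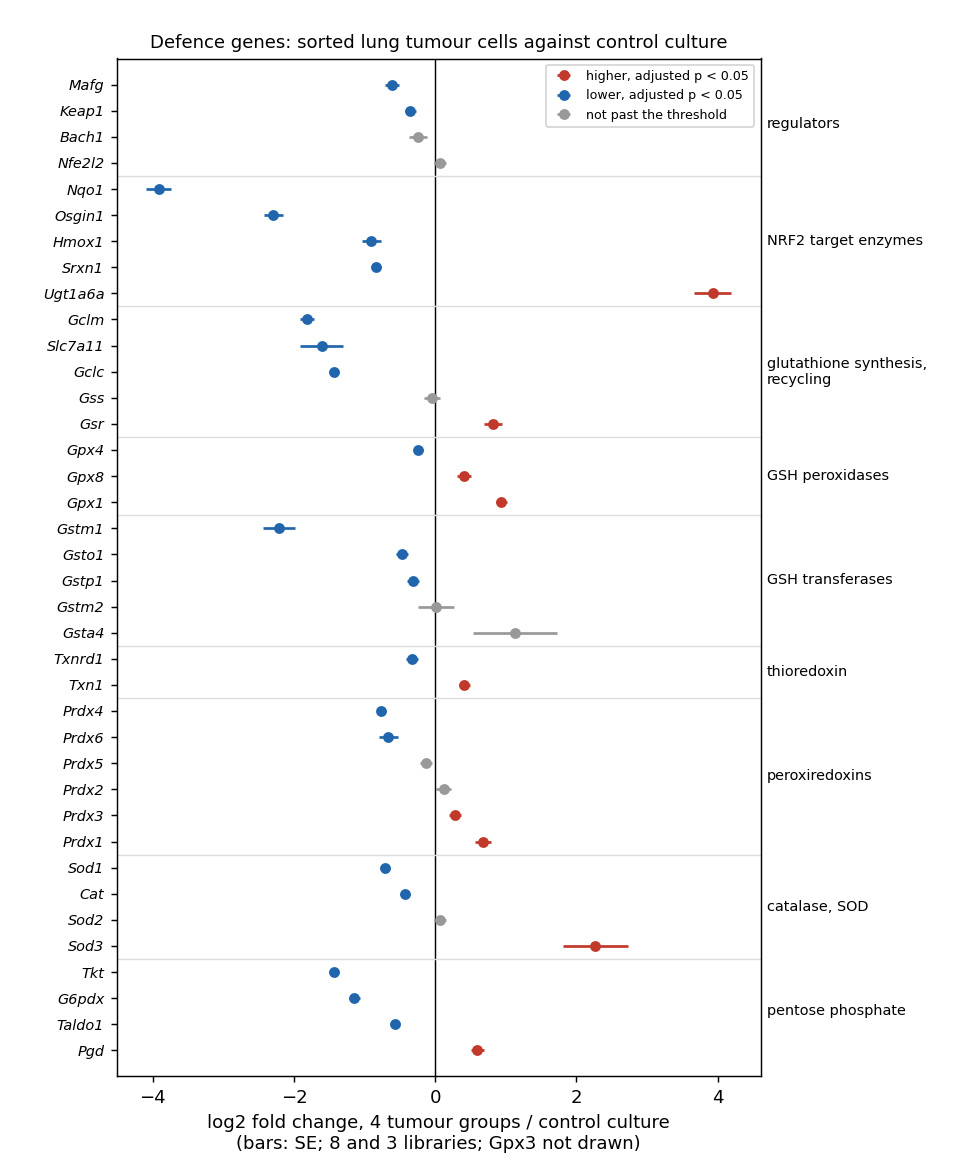
Log2 fold change of members in the mean of the 4 tumour groups against control culture (points, with SE as bars), grouped by role and coloured by edgeR call. Nqo1 at -3.92 and Ugt1a6a at 3.93 are the furthest points; Gpx3 is not drawn because the control cultures held 2 counts of it.

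Among the peroxidases Gpx1 rose 1.92-fold (0.94 ± 0.08) and Gpx8 1.32-fold, and Gpx4 fell by 0.24 on the log2 scale. Gpx3 had 2 counts in the control cultures and 3561 in the tumours, 337 times the culture level, with a 95% interval from counting that runs from 93.3 to 2785. The highest level of this secreted enzyme, 65.5 CPM on the tumour scale, was in WT control 2, the library richest in leukocyte, lung epithelial and endothelial markers. Sod3, at 2.68 to 4.06 CPM in culture and 4.36 to 33.4 CPM in tumours, was also higher (2.27 ± 0.46, adjusted p = 0.0016). By group, edgeR did not call Sod3 in operated WT hosts (0.73 ± 0.55, adjusted p = 0.277). Gstm1 fell from 168 to 197 CPM to 20.2 to 63.4 CPM (-2.21 ± 0.23), while Gsta4 ranged from 10.9 to 93.7 CPM in tumours around 26.8 to 28.7 CPM in culture and did not pass (1.13 ± 0.59, adjusted p = 0.118). Txn1 rose by 1.33-fold and Txnrd1 fell by 0.33 on the log2 scale. Of the peroxiredoxins, Prdx1 (0.67 ± 0.11) and Prdx3 (0.28 ± 0.09) were higher, Prdx4 (-0.76 ± 0.06) and Prdx6 (-0.66 ± 0.14) lower, and Prdx2 and Prdx5 not called.

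Per kilobase of exon, Txn1 was the most abundant member in both settings, at 321 ± 3.7 CPM per kb in control cultures (SD, n = 3) and 429 ± 43.9 CPM per kb in tumours (SD, n = 8). Hmox1 came second in culture at 269.7 ± 11.6 and ranked 3 in tumours at 150.4 ± 48.4 CPM per kb. Nqo1 ranked 5 in culture at 131 ± 6.37 CPM per kb, and Gsr and Gpx1 took ranks 4 and 5 in the tumours.

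The host markers limit this comparison: the pan-leukocyte sum was 4.72 to 5.71 CPM in control cultures and 82.1 to 912 CPM in tumours. The fibroblast and smooth muscle sum was 109 to 114 CPM in control cultures and 1781 to 4140 CPM in tumours. In the control cultures Pdgfra alone gave 81.8 to 85.2 CPM of it. MC-38 itself thus carries RNA of part of this list. Col1a1 read 1.18 to 1.81 CPM in control cultures and 728 to 2601 CPM in tumours. Lum read 0 to 0.381 CPM and 67.4 to 726 CPM. In the tumours the part of MC-38 and that of host cells cannot be told apart. With the mean pan-leukocyte level as a covariate, 3 members were called higher and 11 lower in place of 10 and 21, while over all genes the shares went to 10.6% and 8.6%. On the log2 scale that level was -1.87 to -1.57 in control cultures and 2.68 to 6.28 in tumours. The ranges do not overlap, so the covariate and the comparison can be told apart only in part. Without WT control 2 there were 10 and 22 members. Across all alternatives 13 calls were kept, among them Nqo1, Osgin1, Hmox1, Gclc, Gclm, Gstm1, G6pdx, Tkt, Taldo1 and Prdx4 lower and Ugt1a6a, Gpx8 and Pgd higher. Of the wider list, 77 genes were tested, 18 higher and 31 lower, with a median of -0.18. Over all genes 38% were higher and 33.6% lower, with a median of 0.074. Abcc2, an exporter of glutathione conjugates (-4.73 ± 0.69), Gstm7 (-4.10 ± 0.50) and Txnip, the thioredoxin inhibitor, from 1063 to 69.2 CPM (-4.04 ± 0.19), were lowest. Gstt1 (5.93 ± 0.85) and Oplah, the oxoprolinase of the glutathione cycle (2.52 ± 0.38), were among the highest; Gpx7 had 0 counts in control cultures and 72 in tumours, at least 4.54-fold higher by a floor of 3 counts over the group.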

How the data were processed

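RNA from MC-38 cultures and from MC-38 cells sorted out of lung tumours was sequenced in 14 libraries. Reads were trimmed with Trimmomatic and aligned with STAR to mm10, per the submitters' processing notes; versions and annotation are not stated there. The deposited values are raw counts per gene symbol from STAR, of which the unstranded column was used; 4 summary lines per table (unmapped, multimapping, no feature, ambiguous) were left out, and reads in exons of no listed gene came to 12.1% to 24.0% of those counted in the unstranded column. Between 1.09% and 1.20% of strand-assigned counts lay on the first strand, and the strand-specific column was an alternative.

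The members and lists were chosen with earlier results of these data known. Genes passing filterByExpr were scaled by TMM and tested with edgeR 4.0.16 (quasi-likelihood, robust) in R 4.3.3, with Benjamini-Hochberg adjustment over all genes tested and a threshold of 0.05; standard errors are the fold change over the square root of F. Cultures, the 8 tumour libraries, and tumours with control cultures were fitted separately. Alternatives used RLE or library-total scaling, no filter, DESeq2 1.42.0, limma 3.58.1 voom, a leukocyte covariate, a replicate block and leaving out each library. Replicates differed beyond counting noise in every group. Gene positions and exon lengths came from GENCODE M21 (GRCm38), and promoters from RefSeq (GRCm38.p6). The scripts were tested on simulated data.

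Per-library values are given for the 8 members furthest up and the 8 furthest down in NET cultures among those called, for the regulators, and in each tumour comparison for those called or, with none, the 4 with the smallest p. Other members named with per-library values in tumours and the genes in the plots of levels were chosen after their values were seen. Of the wider list, the 3 highest and 3 lowest called genes are named. Intervals and floors cover counting error only. Same-numbered culture libraries did not deviate together (correlations 0.09, 0.09 and -0.03), so replicate numbers were not taken as pairs.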

Additional observations from a re-analysis of the deposited data

Results flagged for a closer look

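By edgeR's test of the difference itself, Ugt1a6a was the member whose laparotomy effect differed between host genotypes. DESeq2 called it too, and also Gstp1, Sod3, Sod2, Gstm2 and Prdx5. For Ugt1a6a the KO minus WT difference was 2.22 ± 0.35 on the log2 scale (edgeR adjusted p = 0.042). It was made of 2.28 ± 0.26 in PAD-4 KO hosts and values of 13.4 and 10.2 CPM against 13.3 and 11.2 CPM in WT hosts. Over its alternatives the adjusted p of the difference ran from 2.36e-05 with DESeq2 to 0.242 without WT laparotomy 2. The KO controls (4.37 and 4.57 CPM) lay below both WT groups and the operated KO hosts (18.8 and 24.7 CPM) above them, and 50.3% of its exon length is shared with other annotated genes.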

How the results depend on the processing

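For NET-chromatin, members called higher numbered 9 in the fit reported and 3 with library totals, a scaling under which Prdx5 (-0.017), Prdx1 (-0.082), Taldo1 (-0.12), Prdx4 (-0.14) and Sod1 (-0.15) turned sign; Sod1 was -0.00297 with no filter, and with libraries left out Sod1 ran from -0.027 to 0.056 and Prdx4 from -0.018 to 0.048. With libraries left out, 7 to 11 members were higher and 12 to 17 lower. Over all genes the calls then ran from 5006 to 6311, where the fit reported called 6363. In the tumours, members called by edgeR with no filter on low counts were 2 higher for laparotomy in KO hosts, 3 higher for the KO minus WT difference, 2 lower for KO against WT hosts without surgery and 1 higher with laparotomy. DESeq2 called 1 higher and 2 lower for laparotomy in WT hosts, 7 higher in KO hosts, 6 higher for the difference, 1 higher and 2 lower for KO against WT hosts without surgery, and 4 higher with laparotomy. Fitting only the groups compared gave 3 higher for KO against WT hosts with laparotomy. Over all genes it called 220, where the fit reported called 3. Fitting all 14 libraries gave 7 higher and 1 lower for the difference. Over all genes it called 1596, where the fit reported called 99. With libraries left out, higher calls ran from 0 to 4 for laparotomy in KO hosts and from 0 to 5 for the difference, and lower calls from 0 to 1 for KO against WT hosts without surgery; the most came without KO control 2. Over all genes the tumour counts moved as much: 8, 76, 99, 17 and 3 with edgeR were 1207, 789, 1158, 784 and 567 with DESeq2 and 166, 278, 399, 196 and 152 with no filter. For tumours against culture, the leukocyte covariate left 3 higher and 11 lower; Gss turned to 0.45 with it, Gstm2 to -0.0060 with library totals and to -0.064 with limma voom, and with libraries left out Gss ran from -0.12 to 0.032 and Gstm2 from -0.18 to 0.14. The cause was not tested in any of these.

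Replicate numbers are shared between groups, and the labels do not say whether same-numbered libraries belong together. Same-numbered tumour libraries correlated at -0.12 to 0.36, the highest being WT control with PAD-4 KO control. With 2 libraries a group the deviations mirror each other, so these values cannot show whether a batch is shared. With a replicate block, NET cultures had 10 members higher and 16 lower, beside 3180 and 3392 of all genes. Gstp1 lost its call (adjusted p = 0.0585) and Mafg gained one (adjusted p = 0.0218). The KO minus WT difference had 0 members called with the block, with Ugt1a6a at 2.22 (adjusted p = 0.0728), and 56 genes in all. With the numbers crossed for KO controls and operated KO hosts, an alternative chosen after seeing the data, 1 member and 113 genes were called.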
